A study of Mus musculus with 157 samples.

Results

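The set described here is 1321 regions not annotated as promoters. They carried less H3K27ac in bone marrow-derived macrophages after monosodium urate crystals (MSUc) than after PBS. They are the regions of the authors' list of reduced H3K27ac that were not annotated as lying at a transcription start site. That is 1321 of 1838 regions in that list and of 3919 regions in the lists of reduced and gained H3K27ac together. The annotation does not place all of them away from promoters, and 150 lay within 1 kb of a start site. Each region was a window of 2000 bp centred on a site that the authors merged, per the file headers, from accessible regions of PBS, MSUc and LPS cells, of which LPS was not analysed here. The authors assigned each one a nearest gene, which gave 843 genes. The list holds regions chosen for their H3K27ac change, all with a log2 change of -1 or lower and an adjusted p under 0.05 in the authors' deposited table, so H3K27ac values are given below as a description without a test. Accessibility placed the windows, while H3K4me3, the peaks of other factors and the RNA of the nearest genes are not part of the rule that selects them.

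Acetylation of lysine 27 on histone H3 is laid down by the acetyltransferases p300 and CBP and marks active promoters and active enhancers, the distal elements that bind transcription factors and raise transcription of a gene on the same chromosome. In macrophages the enhancers of resting cells are bound by lineage factors such as PU.1, C/EBP, MAF and MEF2, and inflammatory or phagocytic stimuli add and remove acetylation at selected sites. An enhancer need not act on the gene that lies nearest to it, so a nearest gene is a label of position.

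The cells were grown from bone marrow of C57BL/6 mice in DMEM with M-CSF at 16 ng/mL, and were exposed to PBS or to particles at 250 µg/mL. H3K27ac was measured after 5 h in 3 PBS cultures, named for mice 1, 2 and 3, and in 2 MSUc cultures, named for mice 1 and 3, all wild-type, with no age given in the sources used here. Their libraries held 11.0 to 23.7 M tags per the file headers. RNA came from 8 experiments, each with its own PBS group. They were a time course of MSUc with 2 libraries per group at 10 min, 30 min, 1, 2 and 5 h, a comparison of MSUc, calcium pyrophosphate dihydrate crystals (CPPD), silica and aluminum hydroxide (alum), and the wild-type or vehicle cells of experiments on Tfe3 loss, a Tfeb transgene, loss of Bhlhe40 or Bhlhe41, loss of AMPK alpha 1, the DOT1L inhibitor SGC0946 and metformin. The libraries labelled Tfe3KO with PBS or MSUc (3 each) and the cells treated with SGC0946 with PBS (2) or MSUc (3) were used as well, to compare the response to MSUc. The groups outside the time course had 2 or 3 libraries and no exposure time given in the sources used here. The 115 RNA libraries held 2.12 to 22.1 M reads, as recovered from the steps of the deposited values. The AMPK cells came from mice 7 to 8 weeks old and were grown in RPMI with M-CSF at 5 ng/mL, and SGC0946 was present at 1 µM from the first day of culture. The cells named Tfe3WT in their titles carry Tfe3KO in their genotype field and were grouped by title, and 1 MSUc library of the Tfeb wild-type cells carries PBS in its treatment field and was grouped by title. The sources do not say whether the libraries of a group came from separate mice, so p-values measure the spread between these libraries, which may be technical.

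A subset of the regions lay close enough to a start site to hold the sequence just upstream of it. In 92 regions, with 88 genes, the window held the RefSeq start site of its own nearest gene with the 250 bases before it (build GRCm38.p6). The windows of 4 such genes are printed because their regions recur below: Pltp had the largest fall of H3K27ac among regions of at least median signal, Mxd4 and Itga4 fell in RNA, and Sgk1 rose in RNA although its region lost H3K27ac. The Pltp window is chr2:164857709-164857958 on the minus strand, that of Mxd4 is chr5:34187711-34187960 on the minus strand, that of Itga4 is chr2:79255176-79255425 on the plus strand and that of Sgk1 is chr10:21991973-21992222 on the plus strand, each 5′ to 3′ and ending at the base before the start site. Capitals mark the motif found, on either strand: an E-box in Mxd4, a KLF motif in Itga4 and a MAF half-site in Sgk1, while the Pltp window held none of the motifs searched.
Pltp: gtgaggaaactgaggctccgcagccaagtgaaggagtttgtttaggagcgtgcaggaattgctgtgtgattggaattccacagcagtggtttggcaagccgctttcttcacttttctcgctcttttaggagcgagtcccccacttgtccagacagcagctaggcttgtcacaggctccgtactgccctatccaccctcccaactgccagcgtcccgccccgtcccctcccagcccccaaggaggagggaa
Mxd4: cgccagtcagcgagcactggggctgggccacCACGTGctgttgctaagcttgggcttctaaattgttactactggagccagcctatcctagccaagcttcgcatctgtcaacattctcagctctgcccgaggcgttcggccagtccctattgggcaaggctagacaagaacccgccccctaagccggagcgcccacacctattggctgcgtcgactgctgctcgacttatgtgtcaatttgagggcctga
Itga4: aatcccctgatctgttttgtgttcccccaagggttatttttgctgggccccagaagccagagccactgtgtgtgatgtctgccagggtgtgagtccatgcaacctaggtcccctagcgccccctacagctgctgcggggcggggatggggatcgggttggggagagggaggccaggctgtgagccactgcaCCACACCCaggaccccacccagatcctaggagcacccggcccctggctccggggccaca
Sgk1: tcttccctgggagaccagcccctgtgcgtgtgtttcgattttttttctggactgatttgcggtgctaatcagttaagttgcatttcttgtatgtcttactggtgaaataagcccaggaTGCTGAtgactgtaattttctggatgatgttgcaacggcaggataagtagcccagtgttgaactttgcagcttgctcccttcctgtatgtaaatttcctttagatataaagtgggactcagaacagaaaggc

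The E-box, CACGTG, is the element that TFE3, TFEB and other basic helix-loop-helix factors bind, and it lay 219 bases before the start of Mxd4. It was present in 3.41% of the 88 windows and in 6.05% of 27025 RefSeq windows of the same length, both strands searched and overlaps with other motifs allowed. The MAF half-site, TGCTGA, was in 13.6% against 15.8%, the KLF motif, CCACACCC, in 2.27% against 3.19%, and the AP-1 motif, TGANTCA, in 1.14% against 6.87%. The PU.1 motif GAGGAAGT was in 1.14% against 2.44% and the IRF motif GAAACNGAA in 2.27% against 1.65%. The motifs found in none of the 88 were rare in all windows: the MEF2 motifs TATTTTTAG (0.451%) and TATTTATAG (0.426%), the C/EBP motif TTGCGCAA (0.17%), the RUNX motif TGTGGTTT (1.57%) and the NF-kappaB motif GGAATTTCC (0.292%). A second C/EBP motif, TTGCATAA, was in 1.14% against 0.744%. The windows differed more in base composition, with a median GC content of 59.6% against 52.0% and at least 10 CG dinucleotides in 63.6% against 38.2%. These 88 windows cover only the regions next to a start site.

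Across the 1321 regions, H3K27ac signal with MSUc was 2.32-fold lower at the median. The median signal, in normalized tags per window, was 147, 124 and 151 in PBS mice 1, 2 and 3, and 60.2 and 62.5 in MSUc mice 1 and 3. Both MSUc libraries lay below all 3 PBS libraries in 1303 regions, and the groups overlapped in 18. Within mouse 1 and within mouse 3, which were sampled under both treatments, all 1321 regions were lower with MSUc, with median log2 ratios of -1.32 and -1.30. The ratio of mean PBS to mean MSUc signal had quartiles of 2.09 and 2.76, and its median was 2.29 in the 517 promoter regions of the same list. The median spread over the 3 PBS mice was a coefficient of variation of 17.6%. The box plots of signal by library show the shift in all 5 libraries.

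**Figure D1:**
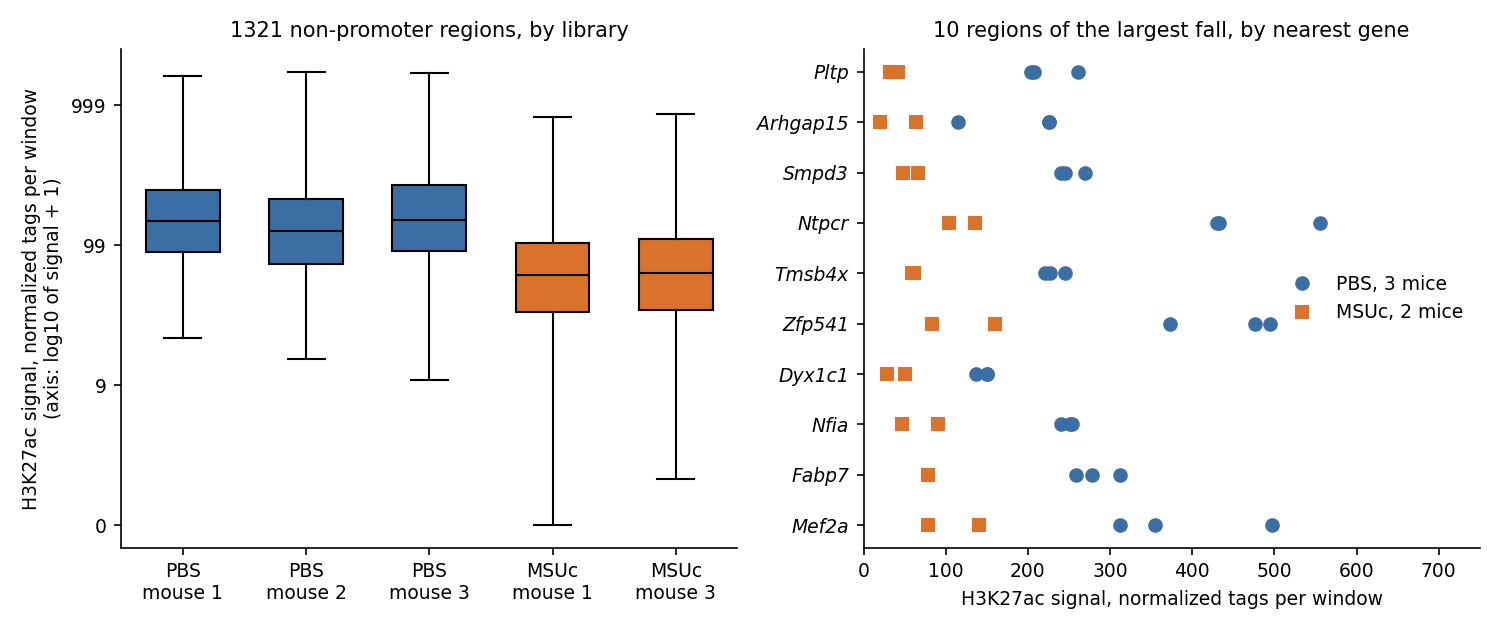
Left: H3K27ac signal (normalized tags per 2000-bp window, plotted as log10 of signal + 1) of the 1321 regions in each library, with the box from the first to the third quartile, the line at the median and whiskers to the lowest and highest region. Right: signal of each mouse in the 10 regions with the largest fall among those of at least median PBS signal, named by nearest gene; PBS mice (circles) all lie above MSUc mice (squares).

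Most regions sat near the lower limit of change that the rule set. In the authors' deposited table the log2 change had a median of -1.27 and quartiles of -1.51 and -1.11, and 299 regions lay above -1.1. A log2 change of -2 or lower was listed for 69 regions in the authors' deposited table, of which 65 had a PBS signal under the median and 4 had one at or above it, so the steepest ratios belonged mainly to weak windows. At the edge of the rule, the region nearest to Tmem268 had a log2 change of -1.001 and that nearest to Pip4k2a an adjusted p of 0.0498 in the authors' deposited table. Regions just outside those limits are not part of the deposited lists that were used.

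Among regions of at least median PBS signal, the largest fall was in intron 1 of Pltp, the gene of phospholipid transfer protein, 363 bp from its start site (chr2:164856345-164858345, mm10). Signal there was 208, 261 and 204 in PBS mice 1, 2 and 3 and 32.2 and 42.4 in MSUc mice 1 and 3, a 6.01-fold difference of means, and the groups did not overlap. The region was in the accessible sets of both treatments. Near Smpd3, which encodes a neutral sphingomyelinase, an intergenic region 1039 bp from the start had 270, 240 and 245 against 65.8 and 48.0. A region 7486 bp from Ntpcr, which encodes a nucleoside triphosphatase, had 432, 430 and 555 against 136 and 104. In each of these 3 regions every PBS value was far above both MSUc values. The region in intron 1 of Mef2a, a MADS-box transcription factor of the MEF2 family, had 312, 497 and 355 against 78.4 and 141. In intron 1 of Nfia, a nuclear factor I gene, the values were 251, 254 and 240 against 91.0 and 46.9. The other 5 of the 10 were nearest to Arhgap15, Tmsb4x, Zfp541, Dyx1c1 and Fabp7, at 3.62- to 4.54-fold. The Arhgap15 region, in an intron of that gene, was the least even, with 226, 115 and 226 against 19.6 and 63.6. Of these 10 regions, 8 were in the accessible set of PBS and not in that of MSUc.

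The 5 strongest regions under PBS lay nearest to 3 genes. Apobec1, which encodes the cytidine deaminase that edits apolipoprotein B RNA, held the top window, in intron 2, with 1619, 1727 and 1710 in the PBS mice and 822 and 869 in the MSUc mice. Csf1r, the M-CSF receptor gene on which macrophage survival depends, held the next, in intron 2 and 2170 bp from the start, with 1165, 1110 and 1306 against 539 and 632. These strong windows had smaller ratios, 1.99 for Apobec1 and 2.04 for Csf1r, with no overlap between groups. A further Apobec1 window had 1031, 1258 and 1114 against 476 and 440. The other windows of the 5 were both nearest to Rbx1, a ubiquitin ligase subunit, but 57.0 kb and 57.4 kb away from its start, with 916, 1239 and 1061 against 452 and 502 in the first.

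Many regions lay in groups. Overlapping windows merged into 1002 loci, of which 737 held a single window and 265 held 2 or more. Of the 843 genes, 535 had 1 region, 214 had 2, 94 had 3 or more and 20 had 5 or more. Grk2, a kinase that desensitizes G protein-coupled receptors, had the most, 9 regions over 12685 bp on chromosome 19, and 7 of its windows merged into a locus of 7734 bp. Zfp541 had 8 regions over 9188 bp, a stretch that reaches into the body of Bicra, a gene of a SWI/SNF subunit. Akna, an AT-hook transcription factor gene, had 5 regions in 1 locus of 4044 bp with mean signals of 415 under PBS and 139 under MSUc. Irf2, an interferon regulatory factor, and Zfp36l2, an RNA-binding protein of the mRNA decay family, had 7 each. Fam105a and the noncoding gene 9430078K24Rik had 8 each, the latter spread over 402526 bp that begin within Rad51b and end 92263 bp short of Zfp36l1. The AP-1 gene Fosb had 6 regions, 6294 to 17261 bp upstream, with a median mean signal of 88.6 under PBS and 32.5 under MSUc. Overlapping windows share tags and are not separate observations.

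By annotation, 660 regions (50.0%) were in introns, 562 (42.5%) were intergenic, 32 were at transcription termination sites, 21 in 5′ UTRs, 21 in coding exons, 15 in 3′ UTRs and 10 in non-coding exons. Of the intron regions, 329 (49.8%) were in intron 1. The distance to the nearest start site had quartiles of 2498, 10365 and 34802 bp, with 150 regions (11.4%) within 1 kb, 954 (72.2%) beyond 3 kb and 81 (6.13%) beyond 100 kb. The 1997 non-promoter regions that gained H3K27ac lay farther out, with a median of 24130 bp and 1.75% within 1 kb. The median signal went from 144 under PBS to 63.3 under MSUc in introns, from 128 to 55.4 in intergenic regions and from 239 to 105 in the 15 regions of 3′ UTRs.

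About 40% of the regions were accessible with PBS but not with MSUc. Of the 1321 regions, 653 (49.4%) were recorded in both the PBS and the MSUc accessible sets, 534 (40.4%) in the PBS set but not the MSUc set, 20 (1.51%) in the MSUc set only and 114 (8.63%) in neither, so only in the set of LPS cells. The promoter regions that lost H3K27ac were in the PBS set alone in 15.5% of 517 cases, and the non-promoter regions that gained it in 10.6% of 1997. By distance from the start site, the share was 32.7% of the regions within 1 kb, 39.2% between 1 and 10 kb and 43.1% beyond 10 kb. The sets come from 2 ATAC libraries per treatment and record only presence, so these shares have no replicate error and no test. The bars of accessible sets show the 3 kinds of region side by side.

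**Figure D2:**
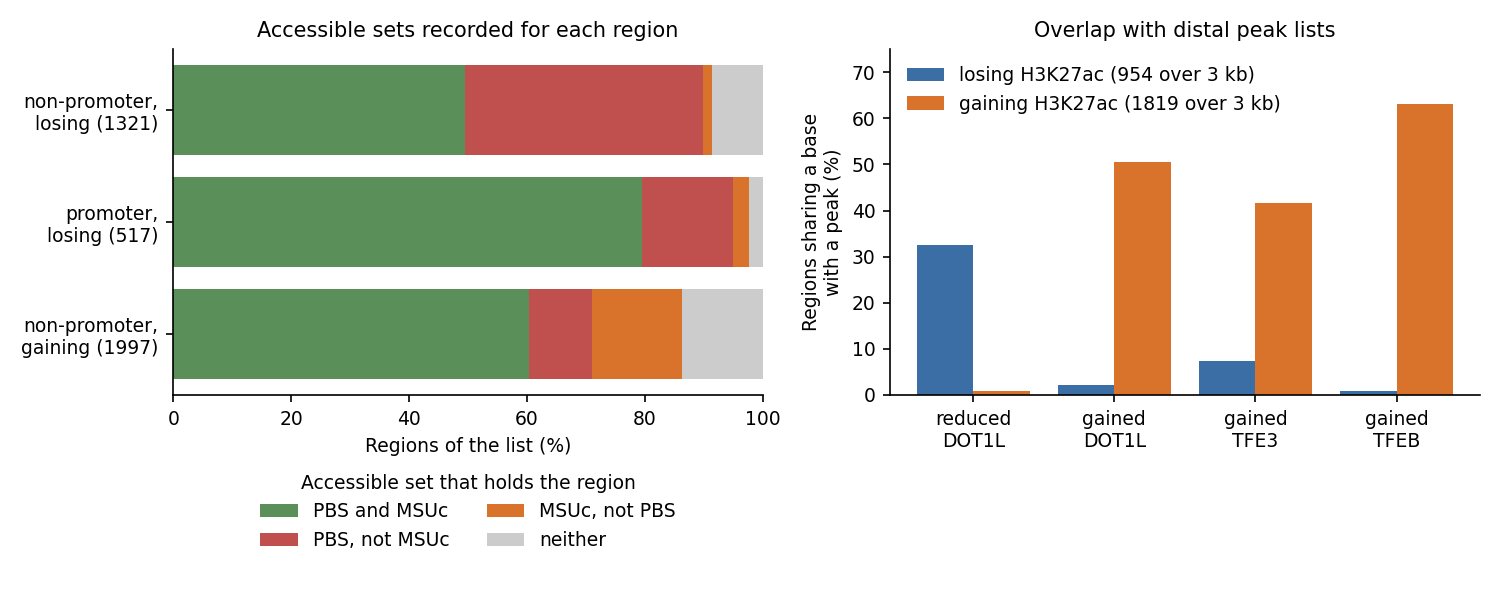
Left: share (%) of each kind of region by the accessible set that holds it, for the 1321 regions described here, the 517 promoter regions losing H3K27ac and the 1997 non-promoter regions gaining it; the PBS-only part is 40.4%, 15.5% and 10.6%. Right: share (%) of regions more than 3 kb from a start site that share at least 1 base with a peak of 4 distal peak lists, for 954 regions losing and 1819 regions gaining H3K27ac.

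DOT1L, a histone H3 methyltransferase found on transcribed genes, was listed as reduced within part of the same sites. The peak lists of DOT1L and of the lysosomal regulators TFE3 and TFEB hold only peaks more than 3 kb from a start site, so they were compared with the 954 regions beyond 3 kb. A peak of reduced DOT1L shared at least 1 base with 310 of them (32.5%), and with 16 of 1819 distal regions that gained H3K27ac (0.880%). Of the 4208 peaks in that list, 261 (6.20%) lay in the 954 regions. Gained DOT1L peaks were in 21 (2.20%), gained TFE3 peaks in 71 (7.44%) and gained TFEB peaks in 8 (0.839%), against 50.5%, 41.6% and 63.2% respectively of the distal regions that gained H3K27ac. Of the 310 regions with a reduced DOT1L peak, 155 (50.0%) were in the PBS accessible set alone, and of the 644 without one, 251 (39.0%) were. A required overlap of 50% of the shorter interval left 307 of the 313 regions at any distance that met a reduced DOT1L peak.

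H3K4me3, a mark usually centred on promoters, was also reduced at many of these regions. Reduced H3K4me3 regions overlapped 364 of the 1321 (27.6%), and gained H3K4me3 regions overlapped none. The reduced H3K4me3 regions also overlapped 151 of the promoter regions losing H3K27ac (29.2%). Of the 868 regions in the list of reduced H3K4me3, 406 (46.8%) overlapped one of the 1321. For 306 regions the same window was in a list of changed H3K4me3, and for all 306 it was the list of reduced regions. Their median H3K4me3 log2 change was -1.37 in the authors' deposited table. Those 306 had a median distance of 5904 bp to the nearest start site. At the Akna window 1616 bp from the start, H3K4me3 signal was 183 and 196 in the PBS libraries and 68.9 and 50.9 in the MSUc libraries. At the intergenic window 30473 bp from Ccr2 it was 65.1 and 59.1 against 26.99 and 23.4. PBS and MSUc libraries did not overlap at either window, but both windows were taken from the list of reduced H3K4me3. These values therefore describe listed windows and are no test. All 3 of reduced DOT1L, reduced H3K4me3 and presence in the PBS accessible set alone were recorded for 45 regions of 35 genes, among them regions of Extl3, Mef2a, Ahrr, Ly6e and Ntpcr.

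From 1 h onward, the share of nearest genes with lower RNA was above the share among all genes. Of the 843 genes, 675 passed the filter on low values at each time point, and 168 genes, with 259 regions, did not and were not tested. At 5 h, 390 of the 675 were lower with MSUc (57.8%) and 58 were higher (8.59%), against a background of 32.9% and 16.4% of all 12350 genes tested, by limma on log2(TPM + 1) with an adjusted p under 0.05. At 2 h, 276 were lower (40.9%, background 22.3%) and 47 higher (6.96%, background 11.2%). At 1 h, 21 were lower (3.11%, background 0.947%) and 13 higher (1.93%, background 2.33%). At 30 min limma called none lower (background 0.0%) and 9 higher (1.33%, background 0.68%), and at 10 min none lower (background 0.0081%) and 1 higher (0.148%, background 0.0486%). Before adjustment, limma gave p under 0.05 with lower RNA in 4 genes at 10 min (0.593%, and 0.955% of all genes) and 7 at 30 min (1.04%, and 1.58%), and with higher RNA in 13 (1.93%, and 1.35%) and 25 (3.70%, and 3.60%). Both at 2 and at 5 h, 262 nearest genes were lower, and the share of all genes lower at both times was not taken. The median log2 change of the 675 was -0.65 at 5 h, against -0.23 over all genes.

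Scaling and expression level bear on these counts. The median of all genes was itself -0.23 at 5 h, and scaling the libraries by median of ratios moved it to -0.01. With that scaling 317 nearest genes were lower and 96 higher at 5 h (background 20.4% and 25.1%), 193 and 71 at 2 h (12.1% and 16.5%), and 16 and 15 at 1 h (0.640% and 2.83%). Relative to the median of all genes the nearest genes were therefore still lower at 5 h, with a median of -0.44. Leaving the other time points out of the fit gave 150 lower at 2 h and 2 at 1 h, and leaving out any 1 of the 4 libraries of 1 h gave 5 to 8 lower there. The shares of all genes called in those fits are not given here, so these counts do not show whether the excess over all genes held. The nearest genes were more expressed than most, with a median of 24.3 TPM in PBS at 5 h against 13.6 over all genes. Among genes of at least 10 TPM, 61.2% of 480 nearest genes were lower and 10.0% higher, against 37.2% and 19.9% of all such genes. At 5 h every MSUc library was below every PBS library in 466 of the 675 genes (69.0%, background 48.8%) and above in 89 (13.2%, background 24.8%).

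**Figure D3:**
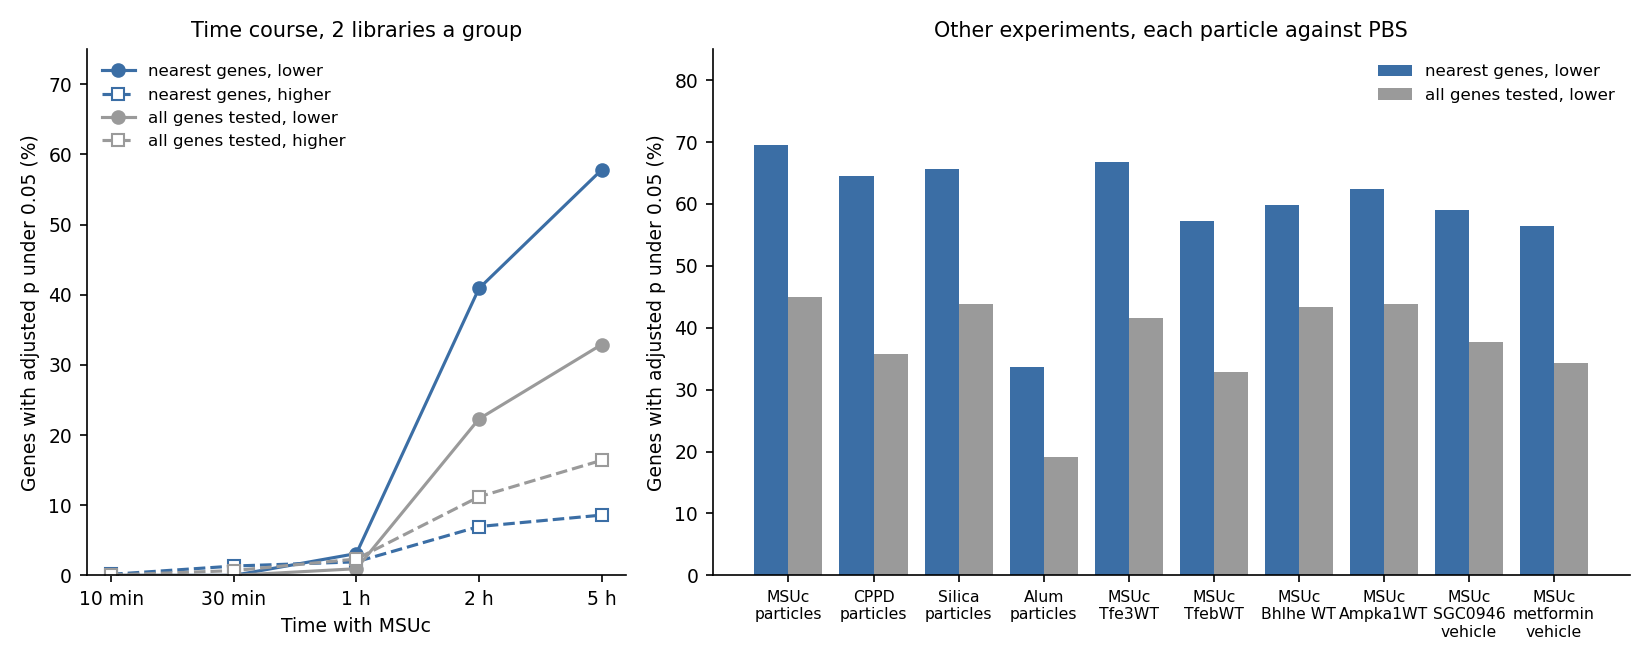
Left: share (%) of the 675 nearest genes and of all 12350 genes tested that were lower (filled circles) or higher (open squares) with MSUc at each time, by limma at an adjusted p under 0.05; the lower share of nearest genes reaches 57.8% at 5 h. Right: share lower for each particle against PBS in the other experiments; the nearest genes lie above all genes in each, from 33.7% with alum to 69.5% with MSUc.

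Other cell types could contribute RNA to a culture, and in bulk samples fewer cells of a type and less RNA per cell cannot be told apart. The summed TPM of 8 macrophage markers at 5 h was 17810 to 25280 in the PBS libraries and 13020 to 14610 in the MSUc libraries, and 4 of the 8, Adgre1, Csf1r, Itgam and Mertk, are themselves nearest genes of the regions. Neutrophil markers (7 genes) summed to 6.59 to 9.73 TPM against 7.84 to 15.2, dendritic cell markers (6 genes) to 0.746 to 1.49 against 4.71 to 5.53, fibroblast markers (5 genes) to 2.10 to 4.45 against 4.05 to 11.7 and endothelial markers (3 genes) to 3.38 to 8.29 against 11.0 to 33.8. B cell, T and NK cell and mast cell lists summed to at most 1.04 TPM in any of these libraries, and the markers Flt3 (dendritic), Ms4a1 (B) and Cd3d (T and NK) are also nearest genes. Some other experiments held more RNA of such markers, here over both genotypes. In the Tfe3 experiment fibroblast markers summed to 180 to 534 TPM with PBS and 182 to 630 with MSUc. Neutrophil markers there summed to 202 to 552 and 286 to 683. In the AMPK experiment fibroblast markers summed to 77.0 to 1353 TPM with PBS and 66.6 to 2969 with MSUc. The part of these levels in the counts was not tested.

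The share of genes that fell is given by distance and by the other marks. Of the genes with a region within 3 kb, 198 of 280 fell at 5 h (70.7%). The share was 135 of 266 (50.8%) where the nearest region was 3 to 30 kb away and 57 of 129 (44.2%) beyond 30 kb. By number, it was 55.8% with 1 region, 59.1% with 2 and 65.8% with 3 or more. Genes that also had a promoter region losing H3K27ac fell in 128 of 162 cases, and those without one in 262 of 513 (51.1%). Genes of regions with reduced H3K4me3 fell in 144 of 182 cases (79.1%), and genes of regions without it in 272 of 527 (51.6%). With a reduced DOT1L peak 98 of 160 genes fell (61.2%) and without one 331 of 566 (58.5%), and with a gained TFE3 peak 18 of 39 fell (46.2%). The DOT1L and TFE3 lists hold no peak within 3 kb of a start site. The class without a reduced DOT1L peak therefore also holds genes of regions near a start site, and the classes differ in distance as well. For H3K4me3 and DOT1L, a gene with regions of both kinds counts in both classes. Genes with a region that left the accessible set fell in 59.9% of cases and those with every region in the MSUc accessible set in 56.6%. The 47 tested genes that were also nearest to a region gaining H3K27ac fell and rose equally, 15 and 15. Each of these shares except the last lay above the 32.9% of all genes, and the differences between the classes were not tested.

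**Figure D4:**
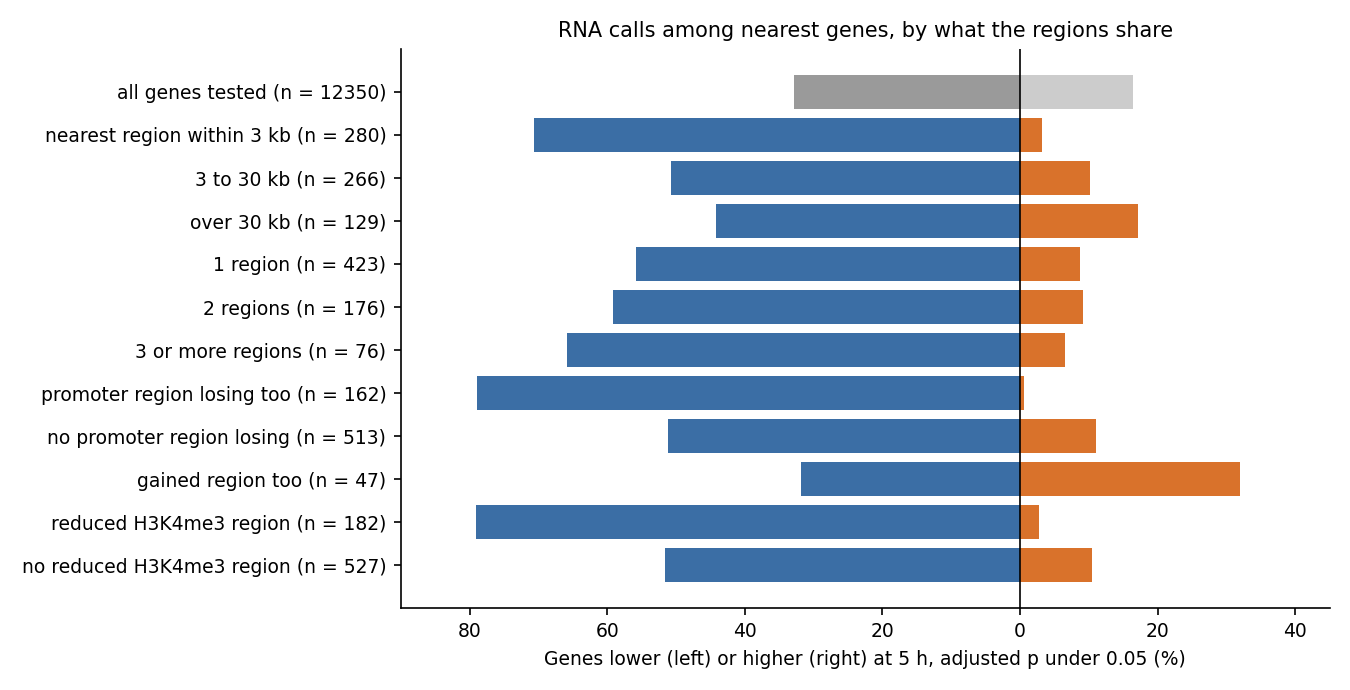
Share (%) of genes lower (bars to the left) or higher (bars to the right) with MSUc at 5 h, limma adjusted p under 0.05, for all genes tested and for nearest genes grouped by distance, number of regions and other marks, with the number tested in brackets. A gene with regions of both kinds counts in both H3K4me3 classes. The lower share is 70.7% within 3 kb and 44.2% beyond 30 kb.

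The gene that hosts a region was not always its nearest gene. For 658 of the 660 intron regions the host could be matched, and it was the nearest gene in 517. There the gene fell at 5 h in 227 of 337 tested cases (67.4%, background 32.9%) and rose in 23 (background 16.4%). For the 141 regions inside another gene, 38 of 74 host genes fell (51.4%) and 7 rose. Of their 56 nearest genes tested, 25 fell (44.6%) and 5 rose. Distance to the start site was not matched between these classes, and their differences were not tested. The Fabp7 windows lie in an intron of Pkib, 62374 to 63698 bp from the start of Fabp7, whose TPM was 12.8 and 13.2 under PBS and 9.30 and 13.0 under MSUc. That gene, a fatty acid-binding protein, did not pass the test (limma log2 change -0.22, adjusted p = 0.504). Rbx1, 57.0 kb from its strongest window, did not pass it either, at 29.9 and 33.6 TPM against 25.6 and 30.3. Bicra, which overlaps the Zfp541 windows, had 17.1 and 18.8 TPM under PBS and 6.06 and 6.14 under MSUc (limma log2 change -1.41 ± 0.12 SE, adjusted p = 9.69e-07). Zfp36l1, 92263 bp from the 9430078K24Rik windows and with 2 regions of its own, fell by 1.92 ± 0.18 (SE) on the log2 scale, from 79.2 and 90.1 TPM to 16.9 and 27.7. It promotes the decay of mRNAs with AU-rich elements. Tlr8, 29.8 kb from the nearest Tmsb4x window, fell by 2.58 ± 0.10 (SE), from 138 and 148 TPM to 21.8 and 24.4, and encodes an endosomal sensor of RNA. Tmsb4x itself, which encodes an actin-sequestering thymosin, fell by 1.03 ± 0.22 (SE) on the log2 scale, from 6718 and 8274 TPM to 3401 and 3917, and lost that call when no filter on low values was used (limma adjusted p = 0.132). Not all neighbours fell. Napa, 43858 bp from the Zfp541 windows, rose by 0.63 ± 0.08 (SE), and Ppp1r13l, 31418 bp from the Fosb windows, rose by 1.51 ± 0.18 (SE). Rad51b, which overlaps the 9430078K24Rik windows, had no call (limma adjusted p = 0.165).

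Macrophage lineage factors and the M-CSF receptor were the list with the most genes among the nearest genes, 9 with 18 regions, of which 7 fell at 5 h and none rose. Over the whole list of 24 tested genes, 9 fell and 5 rose. Median-of-ratios scaling gave 5 lower and 2 higher of the 9 and turned the split of the whole list, to 7 lower and 10 higher. Mef2c, the MEF2 family member with a region in its first intron, had 20.6 and 28.6 TPM under PBS and 4.48 and 5.94 under MSUc, and fell by 2.04 ± 0.27 (SE) on the log2(TPM + 1) scale (limma adjusted p = 4.28e-05). Irf8, an interferon regulatory factor needed for monocyte development, had 124 and 133 TPM against 48.7 and 60.1 (change -1.23, limma adjusted p = 7.32e-06), and its 2 regions lay in introns 2590 and 3692 bp from the start. Tcf4, a basic helix-loop-helix factor, had 41.7 and 41.9 TPM against 12.5 and 12.6 with 1 region 247194 bp inside the gene. The PBS and MSUc libraries did not overlap for any of these genes. Mef2a, with 5 regions, had 137 and 156 TPM against 82.9 and 86.2 and fell by 0.78. Csf1r had 1257 and 1776 TPM against 705 and 980 (change -0.85, limma adjusted p = 0.0449). That call was lost without replicate 2 of either group, where the change was -0.60 or -0.61, with median-of-ratios scaling, at -0.58, and with the replicate number as a block, at an adjusted p of 0.0522.

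Receptors for dying cells and for modified lipoproteins were represented by 3 genes, all of which fell. Mertk, the receptor kinase that recognizes apoptotic cells through bridging proteins, had 34.8 and 36.5 TPM under PBS and 5.61 and 8.58 under MSUc (change -2.20 ± 0.21 SE, limma adjusted p = 3.67e-06). Its single region, in an intron 47772 bp from the start, overlapped a reduced DOT1L peak. Stab1, a scavenger receptor, had 222 and 314 TPM against 83.8 and 107, and Itgb5, the integrin beta 5 subunit, had 255 and 263 against 72.4 and 93.2 with 4 regions. In the whole list, 8 of 15 tested genes fell and 1 rose. Of 7 tested receptors for chemokines, lipid mediators and purines, 4 fell and 1 rose, beside 10 of 24 lower and 5 higher in the whole list. With median-of-ratios scaling 3 of the 7 were lower and 1 higher, and 8 and 6 of the whole list. Ccr2, the receptor that draws monocytes to CCL2, had 71.6 and 103 TPM against 12.5 and 14.1 and fell by 2.61 ± 0.24 (SE), with regions 1226 and 30473 bp from the start. Gpr65, a proton-sensing receptor, had 92.8 and 111 TPM against 19.2 and 37.1. Gpr34, a lysophosphatidylserine receptor, had 6.66 and 18.4 TPM against 0.503 and 0.851, and its limma adjusted p of 0.00541 became 0.0622 without PBS replicate 2. Ccr1, another CC chemokine receptor in the same chromosomal cluster as Ccr2, went the other way, from 4.73 and 7.31 TPM to 36.9 and 50.6 (change 2.68 ± 0.39 SE, limma adjusted p = 9.70e-05). Its region lay 27097 bp away and had a log2 change of -1.002 in the authors' deposited table, at the limit of the rule.

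Among pattern recognition receptors, 3 of 5 Toll-like receptor genes or partners fell and none rose, beside 16 of 27 that fell and 5 that rose in the whole list, and with median-of-ratios scaling 2 fell and 1 rose. Tlr3, a sensor of double-stranded RNA, had 8.64 and 8.91 TPM against 3.79 and 4.04. Tlr9, the sensor of CpG DNA, had 46.1 and 60.05 TPM against 13.2 and 26.1 and fell by 1.45 ± 0.39 (SE), and its adjusted p was 0.0594 or 0.0970 without replicate 1 of PBS or of MSUc. Clec4a3, a C-type lectin gene, had 53.1 and 63.7 TPM against 14.6 and 19.1 (change -1.74, limma adjusted p = 3.30e-06). All 3 interferon genes of the set fell. Irf2, with 7 regions, had 58.8 and 64.8 TPM against 23.5 and 26.2, and Ifngr1, an interferon gamma receptor chain, had 112 and 142 against 37.1 and 47.3. Over the whole interferon list 7 of 31 tested genes fell and 4 rose, a split that median-of-ratios scaling turned to 5 and 6.

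Of 5 integrin and adhesion genes, 3 fell and 1 rose, whereas in the whole list 5 of 17 fell and 9 rose. Itga4, the integrin alpha 4 subunit, whose upstream window is printed above, had H3K27ac of 340, 393 and 465 against 157 and 232 in the region 500 bp from its start. Its RNA was 38.7 and 60.2 TPM against 6.20 and 13.7, a log2 change of -2.26 ± 0.36 (SE). Itga6, the integrin alpha 6 subunit, had 86.5 and 128 TPM against 22.2 and 26.2, and Itgam, the integrin alpha M subunit, had 331 and 364 against 195 and 212. Icam1, the ligand of beta 2 integrins, rose from 64.1 and 75.2 TPM to 140 and 162 (change 1.10 ± 0.14 SE, limma adjusted p = 3.67e-05), while its region 794 bp from the start had H3K27ac of 78.2, 61.1 and 99.03 against 35.0 and 40.2. Regulators of small GTPases and actin fell in 6 of 8 cases, with none higher, beside 18 of 31 lower and 4 higher in the whole list, and with median-of-ratios scaling 6 were lower and 1 higher. Dock8, an exchange factor for CDC42, had 79.1 and 85.2 TPM against 17.5 and 19.0. Inpp5d, the lipid phosphatase SHIP1 and the 1 of 4 inositol and PI3K genes that fell, had 151 and 170 TPM against 51.9 and 57.4 with a region of 721, 563 and 763 against 299.7 and 272. In the whole list of inositol and PI3K genes 13 of 30 fell and 2 rose, and with median-of-ratios scaling 10 and 7, with 1 lower and 1 higher of the 4.

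Genes of the BCL2 family and of cell cycle exit fell in 4 of 5 cases, and none of the 5 rose, whereas 7 fell and 7 rose among the 21 of the whole list, and 4 of the 5 were lower with median-of-ratios scaling. Bmf, a pro-apoptotic BH3-only protein, had 21.6 and 23.0 TPM under PBS and 1.68 and 1.83 under MSUc, and fell by 3.08 ± 0.12 (SE) on the log2 scale (limma adjusted p = 4.39e-09). Its 2 regions were weak, with 29.4, 39.7 and 33.3 against 16.8 and 4.47 in the one 22111 bp from the start. Bcl2l11, which encodes BIM, also BH3-only, had 61.3 and 64.9 TPM against 38.5 and 39.6, and Ccng2, a cyclin of quiescent cells, had 22.1 and 29.8 against 11.6 and 13.4. Ski, a repressor of TGF-beta signalling with 4 regions, had 91.8 and 96.7 TPM against 51.5 and 55.2. The list of TGF-beta signalling and repressors it belongs to had 2 of 5 lower and none higher, beside 8 of 25 lower and 7 higher in the whole list. With median-of-ratios scaling 1 of the 5 was lower and 1 higher, and 5 and 10 of the whole list.

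The other lists held few nearest genes. Complement and Fc receptors had 1 of 2 lower, beside 9 of 14 lower and none higher in the whole list, and C-type lectins and Siglecs 1 of 2, beside 5 of 21 lower and 6 higher. Lysosomal genes of the CLEAR network had 1 of 2 lower, beside 16 of 41 lower and 5 higher, and lipid handling and nuclear receptors 2 of 3, beside 9 of 28 lower and 6 higher. None of the nearest genes in these 4 lists rose. Genes that restrain mTORC1 had 1 lower and 1 higher of 3, beside 10 and 5 of 20, and histone acetylation and Mediator genes 1 lower and 1 higher of 2, beside 8 and 8 of 23. The MHC class II regulator Ciita had no call, in a list of 13 with 1 lower and 4 higher. The V-ATPase list, of which 14 of 17 tested genes rose and none fell, had Atp6v0d2 alone beside these regions, and the list of inflammatory cytokines, of which 22 of 34 rose and 6 fell, had Il1b alone. With median-of-ratios scaling no nearest gene in the complement, mTORC1 and histone acetylation lists was lower. In these whole lists 3 of 14, 8 of 20 and 4 of 23 genes were then lower, and 0, 8 and 10 higher.

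The steepest RNA falls among the nearest genes described here reached 3 log2 units. Abhd15, an abhydrolase gene, went from 11.6 and 16.1 TPM to 0.496 and 0.586 (change -3.25 ± 0.22 SE), and its region had 98.2, 91.7 and 119 against 9.80 and 31.3. Abcd2, a peroxisomal fatty acid transporter, went from 10.5 and 11.0 TPM to 0.409 and 0.554, and Zfp395, a zinc finger gene with 3 regions, from 21.4 and 25.7 to 1.99 and 2.22. Mxd4, a MAX partner that opposes MYC and whose upstream window is printed above, went from 71.0 and 76.8 TPM to 8.63 and 8.67 (change -2.96 ± 0.13 SE, limma adjusted p = 7.47e-09). Among the genes with the most regions, Grk2 went from 196 and 211 TPM to 72.6 and 75.1, Fam105a from 63.9 and 81.0 to 11.7 and 14.2, and Akna from 31.6 and 31.9 to 9.23 and 11.7. Of these genes none had overlapping libraries. Zfp36l2, with 7 regions of which the strongest had 743, 1030 and 779 against 486 and 380, had 292 and 339 TPM against 277 and 297 and did not pass the test (limma log2 change -0.13, adjusted p = 0.533, and 0.13 with median-of-ratios scaling). Pltp, whose region had the largest H3K27ac fall among those of at least median PBS signal, had 1432 and 1470 TPM against 883 and 1040, a change of -0.60 ± 0.13 (SE) that was no longer past the threshold with median-of-ratios scaling (-0.34, limma adjusted p = 0.0949) or with only the 5-h groups in the fit (adjusted p = 0.0507). Of the other genes nearest to the 10 regions of largest fall in that class, Arhgap15 went from 22.3 and 22.9 TPM to 6.78 and 12.1, Ntpcr from 36.1 and 39.8 to 8.54 and 13.3, and Nfia from 1.33 and 2.23 to 0.217 and 0.277, while Smpd3 had 0.612 and 1.03 TPM against 0.257 and 0.401 (limma adjusted p = 0.0941). Apobec1 went from 402 and 430 TPM to 183 and 212.

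**Figure D5:**
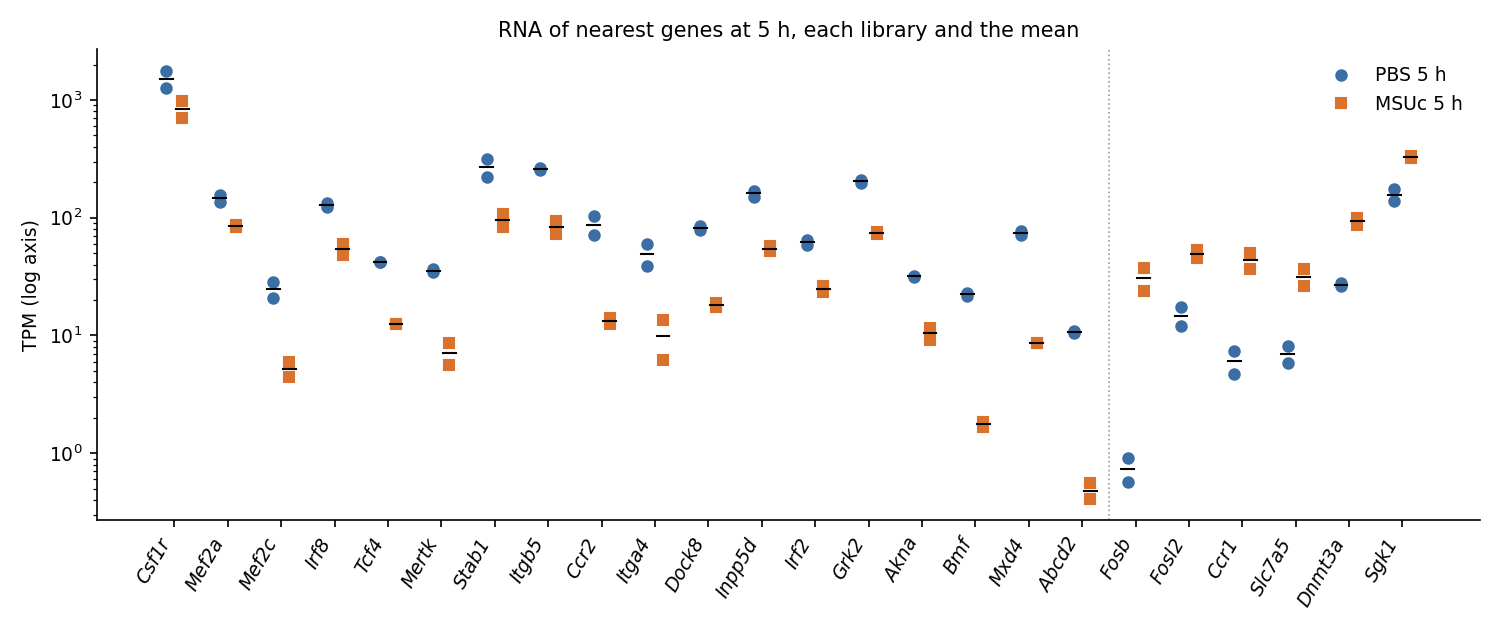
TPM (log axis) of 24 nearest genes at 5 h, with circles for the 2 PBS libraries, squares for the 2 MSUc libraries and bars for their means. The 18 genes left of the dotted line fell with MSUc and the 6 to its right rose; the groups overlap for none of them.

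At 5 h 58 of the 675 nearest genes tested rose although their region lost H3K27ac. That is 8.59%, a lower share than the 16.4% of all genes. Fosb, an AP-1 subunit, had 0.568 and 0.904 TPM under PBS and 23.8 and 37.3 under MSUc (change 4.16 ± 0.25 SE, limma adjusted p = 7.21e-08). Its region 6.6 kb upstream had 209, 192 and 219 against 75.6 and 114, and 5 of its 6 regions overlapped a gained TFE3 peak. Fosl2, a further AP-1 subunit, rose from 11.9 and 17.5 TPM to 45.5 and 52.8, and Egr1, a zinc finger factor of the immediate early response, from 2.39 and 4.61 to 22.8 and 32.9. Slc7a5, a subunit of a neutral amino acid transporter, rose from 5.84 and 8.07 TPM to 26.2 and 36.9, and Dnmt3a, a DNA methyltransferase, from 26.1 and 28.1 to 87.3 and 100.3. The regions of Slc7a5 and Dnmt3a were weak, with mean PBS signals of 36.5 and 25.6. Sgk1, a kinase regulated by glucocorticoid and PI3K signalling, differed in having a strong region next to its start, with 676, 903 and 549 against 311 and 280, that overlapped a reduced H3K4me3 region and was in the PBS accessible set alone. Its RNA nevertheless rose, from 140 and 175 TPM to 319 and 332 (change 1.05 ± 0.21 SE, limma adjusted p = 0.00120), and its other 4 regions lay 7407 to 54979 bp from the nearest start. Il1b, the interleukin 1 beta gene, rose from 2.89 and 4.30 TPM to 5.36 and 11.4, a call lost without PBS replicate 1 (limma adjusted p = 0.102) or MSUc replicate 2 (0.164) and with only the groups compared (0.10). Atp6v0d2, a subunit of the lysosomal proton pump, rose from 37.5 and 54.3 TPM to 97.6 and 130.3, a call lost without replicate 2 of either group (limma adjusted p = 0.0810 and 0.0708).

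The first RNA changes near these regions were rises, as were most of the first changes over all genes. Of all 12350 genes tested, 6 were higher and 1 lower at 10 min, and 84 were higher and 0 lower at 30 min. At 10 min Egr1 was the 1 nearest gene that had risen, by 3.51 ± 0.32 (SE) on the log2 scale. At 30 min it was joined by Fosb (3.74), Btg2 (2.84), Fos (1.97), Il1b (1.699), Fosl2 (1.602), Tagap (1.22), Id1 (1.16) and Zfp36l1 (1.00), of which Btg2 is an antiproliferative gene and Zfp36l1 promotes mRNA decay. Egr1 itself reached 5.46 ± 0.32 (SE) at 30 min. Zfp36l1 then fell below PBS by 5 h, and Fos, at 0.07, and Btg2, at 0.03, did not pass the test at that time. The 21 genes lower at 1 h were led by Bmf, at -1.45 ± 0.12 (SE), and included Txnip (-1.15), an arrestin-like inhibitor of thioredoxin, Zfp217 (-1.11), Abhd15 (-0.95) and Abcd2 (-0.58). H3K27ac was measured only at 5 h, so the order of the changes in RNA and acetylation cannot be told from these data.

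The RNA of the nearest genes was also measured with other particles. In the comparison of particles, 460 of 662 tested nearest genes fell with MSUc (69.5%, background 44.9%) and 73 rose (background 18.1%). With CPPD, 427 fell (64.5%, background 35.8%) and 67 rose (background 16.6%), and with silica 434 fell (65.6%, background 43.9%) and 88 rose (background 24.4%). Alum gave fewer, with 223 lower (33.7%, background 19.2%) and 115 higher (17.4%, background 27.1%). With median-of-ratios scaling the counts were 368 lower and 110 higher for MSUc (background 27.2% and 28.7%), 335 and 84 for CPPD (21.6% and 25.1%), 348 and 147 for silica (31.6% and 35.8%) and 273 and 100 for alum (23.3% and 21.9%). The particles share their 3 PBS libraries, silica and alum are represented by 2 libraries each, and the difference between particles was not tested. The labels name 3 alum and 2 silica samples, and the columns of these particles do not match the labels 1 to 1. The 2 silica libraries differed most from each other, with a chi-square of read counts of 25.1 per degree of freedom. Replicate pairs of the other groups of that experiment gave 3.39 to 10.3.

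In the other wild-type or vehicle cells, the share of nearest genes lower with MSUc lay between 56.5% and 66.8%. It was 454 of 680 in Tfe3WT cells (66.8%, background 41.6%), 376 of 656 in Tfeb wild-type cells (57.3%, background 32.9%), 398 of 664 in wild-type cells of the Bhlhe experiment (59.9%, background 43.4%), 416 of 667 in Ampka1WT cells (62.4%, background 43.9%), 395 of 670 with the vehicle of SGC0946 (59.0%, background 37.7%) and 376 of 665 with the vehicle of metformin (56.5%, background 34.3%). The numbers higher were 73, 55, 87, 97, 91 and 69 in the same order (background 20.0%, 12.6%, 17.1%, 19.7%, 17.8% and 19.6%). Median-of-ratios scaling changed the split most in the Bhlhe, Ampka1WT and Tfeb experiments, to 281 lower and 143 higher (background 25.1% and 27.8%), 309 and 155 (28.3% and 30.7%), and 254 and 92 (16.4% and 20.2%). Of 629 nearest genes tested in all 8 experiments, 240 were lower in each (38.2%, and 16.8% of all genes), and 26 were higher in each (4.13%, and 7.72%). A further 14 had no call and 45 were called in both directions, beside 681 and 758 of all 11186 genes tested in the 8 experiments. Mef2c, Irf8, Tcf4, Csf1r, Mertk, Stab1, Itgb5, Ccr2, Itga4, Dock8, Irf2, Bmf, Mxd4, Grk2 and Akna were among the 240. The 26 included Fosb, Fosl2, Ccr1, Slc7a5, Dnmt3a, Sgk1 and Rragc. Pltp was lower in 5 of the 8 experiments and Smpd3 in 2.

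Inhibition of DOT1L, whose reduced peaks overlapped 310 of the distal regions, gave no call on the response of these genes. With SGC0946, the difference between the MSUc response under inhibitor and under vehicle passed an adjusted p under 0.05 in 0 of 670 nearest genes by limma (background 0.0% lower and 0.0325% higher). Before adjustment, 90 (13.4%) had p under 0.05, against 11.3% of all genes, and the lowest adjusted p was 0.0897, at Xylt1. The SGC0946 group with PBS held 2 libraries.

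Loss of TFE3, a lysosomal and metabolic regulator, was examined in libraries labelled Tfe3KO. Tfe3 RNA itself did not separate the labels, at 52.3 to 108 TPM in 12 Tfe3WT libraries and 31.1 to 97.7 TPM in 12 libraries labelled Tfe3KO, and a level over the whole transcript does not check a deletion of part of a gene. The MSUc response was lower in the libraries labelled Tfe3KO in 15 of 680 nearest genes (2.21%, background 1.31%) and higher in 1 (0.147%, background 0.414%). Rragc, a Rag GTPase that carries nutrient signals to the lysosome, had a mean of 93.6 ± 2.5 TPM (SD, n = 3) with PBS and 181 ± 9.0 (SD, n = 3) with MSUc in Tfe3WT, and 90.8 ± 6.8 (SD, n = 3) and 102 ± 5.0 (SD, n = 3) in the libraries labelled Tfe3KO. Sgk1 had 83.7 ± 1.7 and 244 ± 2.6 TPM (SD, n = 3 each) in Tfe3WT, and 99.1 ± 6.1 and 172 ± 28 TPM (SD, n = 3 each) in the libraries labelled Tfe3KO. For both genes the response was smaller with the Tfe3KO label, by 0.77 ± 0.09 (SE, limma adjusted p = 0.000172) and 0.76 ± 0.15 (SE, limma adjusted p = 0.0112) on the log2 scale. The count of 15, given without the share of all genes in these further fits, fell to 6 when only these 4 groups entered the fit, and ranged from 5 to 20 when 1 library was left out. The libraries whose absence moved it by over 1.5 times were Tfe3WT PBS replicates 2 (8 genes) and 3 (9), Tfe3WT MSUc replicates 1 (6) and 2 (7), and, with the Tfe3KO label, PBS replicates 2 (9) and 3 (7) and MSUc replicate 2 (5).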

How the data were processed

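The members and gene lists were chosen with earlier results of these data known. H3K27ac and H3K4me3 signal was deposited by the authors as normalized tags per 2000-bp window around accessible sites (HOMER, mm10, per the file headers), with the authors' log2 changes and adjusted p-values. The test behind those p-values is not named. Peak lists of DOT1L, TFE3 and TFEB carry a peak score from the authors, per the file headers, and only their positions were used. RNA was deposited by the authors as TPM (STAR and HOMER, per the submitters' processing notes). TPM times transcript length moved in steps of 1 read, and among genes of under 100 reads at least 99.957% of values in each library lay within 0.15 of a whole read. No 2 replicates were copies. A further 6 library columns with no matching label were not used.

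From these files, overlaps were taken with bedtools 2.31.1 (at least 1 shared base). RNA was tested with limma 3.58.1 in R 4.3.3 on log2(TPM + 1), all groups of an experiment in 1 fit without a replicate block, keeping genes that reached 1 TPM in at least the number of libraries of the smallest group, with Benjamini-Hochberg adjustment over all genes and a threshold of 0.05. Background is the share of all tested genes called by the same rule. The fit was tested on simulated data for the 5-h comparison: all 50 genes with a log2 change of -2 and all 50 with 2, 44 of 50 with -1 and 45 of 50 with 1 were called, as were 12 of 11733 unchanged genes. In the simulation few genes changed, evenly up and down, and all genes had the same dispersion. It therefore did not test a shift in the median of all genes, or a spread that differs between genes, as in the data. Plots were drawn with matplotlib 3.10.9 and tables built with pandas 2.3.3 in Python 3.11.15.

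Regions named in the text are the 10 of largest fall among those of at least median PBS signal, the 5 of highest PBS signal and those of the 10 genes with the most regions. Genes are their nearest genes, the largest RNA changes at 5 h without overlap between groups, and up to 4 of smallest p per gene list. Neighbouring genes (Bicra, Tlr8, Napa, Ppp1r13l, Rad51b), the genes changed before 2 h, those of the Tfe3KO comparison and the windows described for H3K4me3 were named after their values were seen. In the comparison of particles, same-numbered libraries deviated together (correlations from 0.100 to 0.136 over 3 pairs), so their numbers were taken to pair them. The main counts use no pairing in any experiment. Same-numbered correlations were smaller in Tfe3WT (0.0333 to 0.0895), Bhlhe wild-type (0.0884) and metformin vehicle cells (0.0511 to 0.0844). These were not taken as paired. The values were 0.00762 and 0.0106 in Tfeb wild-type, -0.14 to 0.00466 in Ampka1WT and -0.0493 to 0.00028 in SGC0946 vehicle cells. The alternatives were another scaling, pseudocounts of 0.1 and 5, no filter, the groups compared alone, a replicate block, and each replicate left out.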

Additional observations from a re-analysis of the deposited data

Results flagged for a closer look

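The response to MSUc differed between libraries labelled Tfe3KO and Tfe3WT in 16 nearest genes, by the interaction term of limma at an adjusted p under 0.05. Of 680 tested, the response was lower with the Tfe3KO label in 15 (2.21%, background 1.31%) and higher in 1 (0.147%, background 0.414%). The count of 15 ranged from 5 to 20 with 1 library left out, without the share of all genes in those fits. Each difference given is the log2 response with the Tfe3KO label minus that in Tfe3WT, with 3 libraries per group. The difference was -0.77 for Rragc, a Rag GTPase, and -0.76 for Sgk1. It was -0.81 for Gng2, a G protein gamma subunit, -0.93 for Pla2g15, a lysosomal phospholipase, and -0.95 for Snx29. Tlr7, an endosomal RNA sensor, had -0.79, and Lyst, a regulator of lysosome size, had -0.64. The values were -0.74 for Tmem268, -0.60 for Usf2, -0.66 for Washc2, -0.98 for Nr1d1, -0.47 for Rab43, -0.68 for Abhd15, -0.56 for Lhfpl2 and -0.85 for Tmem37. Rasa1, a Ras GTPase-activating protein, was the exception in sign, at 0.50. The direction of the response itself varied: Rragc and Lhfpl2 rose in Tfe3WT, Lhfpl2 from 114 to 574 TPM, while Tmem37 and Abhd15 fell under both labels. The Tfe3 RNA level did not separate the labels.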

How the results depend on the processing

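Of 270 alternatives for the main results, 253 stayed within the limits set for calling a result unchanged, and 17 moved, 11 of them with 1 library left out. With only the groups compared in the fit, the nearest genes lower with MSUc numbered 2 in place of 21 at 1 h and 150 in place of 276 at 2 h, and those lower in the Tfe3KO interaction 6 in place of 15. With 1 library left out, these counts ranged from 5 to 8 at 1 h, from 206 to 224 at 2 h and from 5 to 20 for Tfe3KO, and from 342 to 363 at 5 h. No share of all genes is given for these fits, so the counts alone do not show the excess over background. The share lower at 1 h was 1.97% for regions beyond 3 kb, and the SGC0946 interaction called 1 gene lower with no filter. The median log2 ratio of H3K27ac was -1.20, and -1.38 with signal scaled to the header totals, an alternative chosen after seeing the data. Changes that reversed sign had not passed the test: Fabp7 (0.0195 with median-of-ratios scaling, and -0.44 to 0.0001 with 1 library left out), Rbx1 (0.0717) and Zfp36l2 (0.13). The cause was not tested. Of 51 named genes that passed the test, 44 passed in every alternative run. The replicate block gave 387 lower at 5 h, 269 at 2 h, 18 at 1 h and 462 with MSUc in the paired comparison of particles, and it moved 1 count by over 1.5 times, the genes higher in the Tfe3KO interaction, from 1 to 3. At 2 and 5 h, same-numbered libraries deviated in opposite directions (correlations of -0.487 and -0.417 over 2 pairs), and crossed numbers gave 263 and 387 lower. The fits with a replicate block, too, are given without the share of all genes. Depth limits the H3K27ac values: a median region held 43 and 56 tags in the MSUc libraries and 122 to 220 in the PBS libraries. The planned search for motifs inside the regions was not run, since no genome of the files' build was used here.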
